A study of Mus musculus with 8 samples.

Results

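Platelet-derived growth factor (PDGF) is a family of secreted ligands read by a pair of receptor tyrosine kinases, and MSPCs (mesenchymal stem/progenitor cells) of the bone marrow are sorted with an antibody to the first of these receptors, PDGFRα. The transcripts followed here are those of the receptors Pdgfra and Pdgfrb, the receptor-like gene Pdgfrl and the ligand chains Pdgfa, Pdgfb, Pdgfc and Pdgfd. These 7 genes were taken by symbol from the 52636 gene rows of the count table, and each was found once. The libraries came from the MSPCs of 8 C57BL/6 mice, 1 mouse per library, in 2 groups of 4. CTR mice were Flk2-cre.Cxcr4fl/+ and cKO mice were Flk2-cre.Cxcr4fl/fl, so that both groups carried the Cre transgene and at least 1 floxed Cxcr4 allele, and no library came from mice without Cre. Flk2-cre is active in multipotent hematopoietic progenitors and passes the deletion to their progeny, and not to the MSPCs that were sequenced. The sample labels give an age of 6 weeks and the methods 8 to 20 weeks for all mice. The sorted cells were CD45-, Ter119-, CD31-, CD144-, PDGFRα+ and positive for GFP reported from the gene of stem cell factor, Kitl. Sorting on this GFP requires the reporter allele of Kitl, so both groups carried it beside the genotypes above. The authors report that this allele brings membrane-bound stem cell factor and hematopoietic stem cell numbers of cKO mice back to control level. Whether the mice sequenced had the raised stem cell numbers of cKO mice without the reporter was not tested here. The question was whether loss of CXCR4 in hematopoietic progenitors went with a change in the PDGF system of the stromal cells that face them.

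PDGF chains pair into dimers. The A and C chains act mainly through PDGFRα, the D chain mainly through PDGFRβ, and the B chain through both. Binding brings receptor molecules together, the kinases phosphorylate each other, and adaptors then lead to the Ras-MAPK, phosphatidylinositol 3-kinase and phospholipase C pathways. PDGFRα marks mesenchymal progenitors in many organs, whereas PDGFRβ is best known from pericytes, smooth muscle and perivascular stroma, which recruit to vessels along PDGF-B made by endothelium. Pdgfrl encodes a protein that resembles the extracellular part of the receptors and lacks the kinase.

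In CTR and cKO MSPCs alike, Pdgfrb was the most abundant of the 7 transcripts, Pdgfra followed, Pdgfd and Pdgfa were the ligand transcripts in every library, Pdgfrl and Pdgfc were near the limit of detection, and Pdgfb had no count. None of the members differed between genotypes beyond the spread between mice. Levels are given as CPM, counts scaled to the TMM-adjusted total of the library, and levels of different genes are compared as CPM per kb of the gene's annotated exons.

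Total counts ran from 31047344 to 38216877 per library, with a count for 18366 to 20684 genes. The labelled cell type was set against markers. The gate itself selected for Kitl and against the products of Pecam1, Cdh5 and Ptprc, so these markers give no independent check. All 8 MSPC markers, among them Lepr, Kitl and Cxcl12, had a mean of at least 10 CPM, and their sum was 52427 to 64785 CPM in CTR and 53551 to 65482 CPM in cKO. The 10 endothelial markers summed to 5.81 to 9.96 CPM over all libraries, with Pecam1 at 0 to 52 counts, Cdh5 at 0 to 20 and Tek at 0. The 10 megakaryocyte and platelet markers summed to 2.98 to 11.5 CPM, and the 7 fibroblast markers to 1.93 to 12.1 CPM, with Dpt, Cd34 and Clec3b at 0. The 9 pericyte or smooth muscle markers summed to 381 to 449.7 CPM in CTR and 400.3 to 449 CPM in cKO. Of the 9 osteoblast or chondrocyte markers, Ibsp had a mean of 10691 CPM, Col1a1 358 CPM, Sp7 72.3 CPM and Sox9 26.7 CPM, the other 5 were under 10 CPM, with Acan at 0, and the list summed to 8125 to 12087 CPM for CTR and 8816 to 14179 CPM for cKO. The 16 other hematopoietic markers summed to 75.8 to 222 CPM in CTR and 170.4 to 281 CPM in cKO, which overlapped (two-sided exact permutation test, p = 0.114), and Ptprc, which encodes CD45, had 0 to 32 counts. Cxcr4 itself, deleted in blood cells and not in the cells sequenced, ranged over 4 to 19 counts among CTR libraries and over 0 to 12 among cKO libraries. A count of 0 in this table is not proof of an absent transcript, since 43 genes had 0 in at least 1 library and 300 or more in another. H1fx, a linker histone gene, had 0 in CTR3, cKO1 and cKO4 and 474 to 565 in the other libraries.

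Promoter sequence from RefSeq (GRCm38.p6) was at hand for 4 of the 7 members, and each window holds 250 bases before and 50 bases after the annotated start. They are shown because transcript levels of these 4 genes ran from Pdgfra, the highest, to Pdgfc, the lowest, with Pdgfd and Pdgfa close together. Capitals mark a TATA box (TATAAA) or a GC box (GGGCGG, read as CCGCCC on the other strand). All are written in the direction of transcription, Pdgfa from the minus strand and the others from the plus strand.
Pdgfra, chr5:75152001-75152300: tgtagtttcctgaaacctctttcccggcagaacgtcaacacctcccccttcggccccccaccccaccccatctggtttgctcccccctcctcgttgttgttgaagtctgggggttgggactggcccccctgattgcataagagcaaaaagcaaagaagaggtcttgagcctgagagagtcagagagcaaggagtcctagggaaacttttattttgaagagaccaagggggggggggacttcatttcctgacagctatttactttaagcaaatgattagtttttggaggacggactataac
Pdgfd, chr9:6168236-6168535: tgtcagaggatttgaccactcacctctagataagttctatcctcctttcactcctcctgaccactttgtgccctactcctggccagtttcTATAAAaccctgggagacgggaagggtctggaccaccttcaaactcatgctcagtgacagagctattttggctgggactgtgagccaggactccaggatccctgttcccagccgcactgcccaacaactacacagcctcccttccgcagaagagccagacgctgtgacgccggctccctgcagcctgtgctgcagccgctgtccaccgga
Pdgfa, chr5:138994895-138995194: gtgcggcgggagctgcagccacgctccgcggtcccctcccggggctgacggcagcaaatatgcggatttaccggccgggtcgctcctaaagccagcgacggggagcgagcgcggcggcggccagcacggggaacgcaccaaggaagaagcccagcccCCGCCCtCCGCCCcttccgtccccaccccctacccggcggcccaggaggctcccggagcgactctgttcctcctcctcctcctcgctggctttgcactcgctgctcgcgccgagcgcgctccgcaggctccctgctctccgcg
Pdgfc, chr3:81036166-81036465: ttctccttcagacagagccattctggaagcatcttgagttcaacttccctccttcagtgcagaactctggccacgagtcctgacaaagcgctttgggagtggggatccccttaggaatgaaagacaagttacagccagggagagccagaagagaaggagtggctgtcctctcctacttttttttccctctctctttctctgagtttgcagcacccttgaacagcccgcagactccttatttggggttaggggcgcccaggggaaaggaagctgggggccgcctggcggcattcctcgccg

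The window of Pdgfa stood out by composition, with 73.3% G or C and 37 CpG sites, more than in 94.5% and 94.4% of the 32851 promoters in the table, whose medians were 52.7% and 7. It held 2 GC boxes, at 93 and 86 bases before the start, both on the strand opposite to transcription. A further RefSeq start of Pdgfa, with the window chr5:138994232-138994531, had 67.0% G or C, 24 CpG sites and 1 GC box. Pdgfra, far more abundant as a transcript, had 51.0% and 5 CpG sites. Pdgfd and Pdgfc had 8 CpG sites each, with 56.7% and 55.0% G or C, while their transcripts lay far apart in level. The window of Pdgfd held TATAAA at 160 bases before the RefSeq start. This window ends before the first start of Pdgfd in GENCODE M21, at 6168584. On both strands, TATAAA was found in 13.6% and GGGCGG in 35.7% of all promoters. The letters GCGGGGGCG (EGR site), CCAAT and GTAAACA (FOX site) were in none of the windows of these 4 genes and in 2.91%, 37.4% and 3.65% of all promoters. A GC box and an EGR site can overlap by letters. A match describes the sequence and does not show that a factor was bound.

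Pdgfrb, which encodes PDGFRβ, lies on chromosome 18 (61045150 to 61085061, plus strand, GRCm38, ENSMUSG00000024620.11). Its level was 2012, 2359, 2121 and 2596 CPM in CTR1 to CTR4 and 2397, 2606, 2377 and 2169.6 CPM in cKO1 to cKO4. The highest libraries, CTR4 and cKO2, came from different genotypes, and the lowest, CTR1, was a control. Per kb of exon the level was 415 ± 47.5 in CTR and 436 ± 32.6 in cKO (CPM per kb, SD, n = 4 each). Among the 25681 genes with a count in at least 1 library, Pdgfrb ranked 71st per kb, and between 60 and 82 in single libraries.

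Pdgfra, on chromosome 5 (75152292 to 75198215, plus strand, ENSMUSG00000029231.15), encodes the receptor by which the cells were sorted, so its presence is set by the gate. It measured 635, 613, 558 and 686 CPM in CTR1 to CTR4 and 623, 823, 600.0 and 641 CPM in cKO1 to cKO4. Library cKO2 stood above the other 7, which lay within the range of the CTR group. Per kb the level was 62.1 ± 5.27 in CTR and 67.0 ± 10.2 in cKO (CPM per kb, SD, n = 4 each), and the rank among genes was 631.

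Per kb of exon, Pdgfrb was above Pdgfra in 8 of 8 libraries, although the sort used PDGFRα and not PDGFRβ. The ratio of Pdgfrb to Pdgfra was 5.80, 7.04, 6.95 and 6.92 in CTR1 to CTR4 and 7.04, 5.80, 7.25 and 6.19 in cKO1 to cKO4. The means were 6.68 ± 0.589 and 6.57 ± 0.690 (SD, n = 4 each), and the groups overlapped (two-sided exact permutation test, p = 0.943). The merged exons of Pdgfra span 10.024 kb and those of Pdgfrb 5.478 kb. Scaled to the longest transcript of each gene, the ratio was 3.99 to 4.99, so that its size depends on the length used while its direction does not.

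Pdgfrl, on chromosome 8 (40926212 to 40990785, plus strand, ENSMUSG00000031595.9), had 49, 38, 42 and 82 counts in CTR1 to CTR4 and 37, 18, 44 and 44 counts in cKO1 to cKO4. In CPM it was 1.56 ± 0.456 in CTR and 1.04 ± 0.363 in cKO (SD, n = 4 each). The highest value came from CTR4 and the lowest from cKO2, and the ranges of the genotypes overlapped. At 0.416 CPM per kb it was far below both kinase receptors.

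Pdgfd, on chromosome 9 (6168584 to 6378850, plus strand, ENSMUSG00000032006.15), encodes the D chain, which is secreted in a latent form and freed by proteolysis. It measured 59.3, 45.8, 64.5 and 45.3 CPM in CTR1 to CTR4 and 51.4, 49.9, 58.6 and 48.2 CPM in cKO1 to cKO4. The 4 cKO libraries lay inside the range of the CTR libraries. Per kb this was 17.0 ± 3.08 in CTR and 16.5 ± 1.45 in cKO (CPM per kb, SD, n = 4 each).

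Pdgfa, on chromosome 5 (138976014 to 138997370, minus strand, ENSMUSG00000025856.15), encodes the A chain, the ligand of PDGFRα. It measured 31.0, 36.4, 36.1 and 35.5 CPM in CTR1 to CTR4 and 39.4, 35, 35.3 and 41.0 CPM in cKO1 to cKO4. CTR1 was the lowest library and cKO4 the highest, and the other libraries of both groups were interleaved. Per kb the level was 11.1 ± 0.817 in CTR and 12.1 ± 0.953 in cKO (CPM per kb, SD, n = 4 each). Of its exon bases, 26.066% are shared with the antisense gene 6330403L08Rik, which had 153 to 311 counts against 957 to 1576 for Pdgfa. The strand setting of the counting was not given in the sources used here, so reads in the shared stretch cannot be told apart.

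Per kb of exon, Pdgfd exceeded Pdgfa in 8 of 8 libraries, by 1.16 to 1.89 times, with means of 1.54 ± 0.338 in CTR and 1.38 ± 0.204 in cKO (SD, n = 4 each; two-sided exact permutation test, p = 0.457). Per kb of the longest transcript the mean levels were 16.9 for Pdgfd and 17.6 for Pdgfa, so their order is not settled. Both ligand transcripts lay below the receptors. Pdgfra exceeded Pdgfa by 4.81 to 7.31 times and Pdgfrb exceeded Pdgfd by 18.9 to 33.0 times, per kb of exon over the 8 libraries.

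Pdgfc, on chromosome 3 (81036416 to 81214040, plus strand, ENSMUSG00000028019.9), encodes the C chain, a further latent ligand of PDGFRα. It had 0, 0, 5 and 34 counts in CTR1 to CTR4 and 29, 10, 53 and 0 counts in cKO1 to cKO4. Libraries with and without a count occurred in both genotypes, and the level did not pass 0.320 CPM per kb in any library. Its range overlapped that of Pdgfrl per kb, so these neighbors in the order of levels were not separated. Pdgfb, on chromosome 15 (79995874 to 80014977, minus strand, ENSMUSG00000000489.6), encodes the B chain and had 0 counts in each of the 8 libraries. Over all libraries, 272444468 counts, this allows a level of up to 0.0110 CPM, and in a single library up to 0.0785 to 0.0966 CPM, taking 3 counts as the limit, for counting error only.

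**Figure D1:**
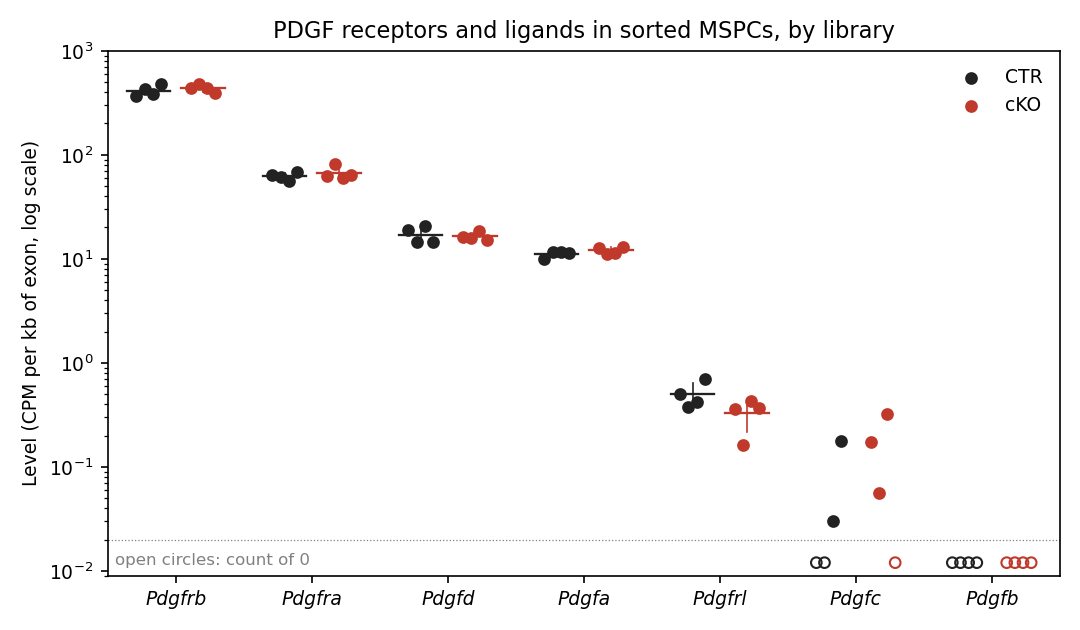
Level of each PDGF gene per library, in CPM per kb of exon on a log axis, with CTR in black and cKO in red; horizontal bars are group means, vertical lines the SD (n = 4), and open circles are libraries with a count of 0. Pdgfrb lies at 367 to 476 CPM per kb, Pdgfra at 55.7 to 82.1, Pdgfd and Pdgfa between 9.93 and 20.5, and the genotypes overlap for every gene with counts.

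Among 54 receptor tyrosine kinase genes, 29 had a count in every library and 11 had none in any. Pdgfrb was the most abundant of them in these cells, at 425 CPM per kb averaged over the 8 libraries. Fgfr2, a fibroblast growth factor receptor, followed at 89.4 CPM per kb and Pdgfra at 64.6 CPM per kb. Single libraries of Fgfr2 (75.1 to 109 CPM per kb) and Pdgfra (55.7 to 82.1 CPM per kb) overlapped. The next were Egfr, the epidermal growth factor receptor, at 38, Ryk, a Wnt receptor, at 36.2, the collagen receptor Ddr1 at 32.6, Ptk7 at 29.4 and the collagen receptor Ddr2 at 26.4 CPM per kb. Pdgfrb kept the first and Pdgfra the third place per kb of the longest transcript. The mean levels by that length were 429.6 for Pdgfrb, 209 for Fgfr2 and 94.7 for Pdgfra. The lead of Pdgfrb over Fgfr2 and the nearness of Fgfr2 to Pdgfra thus depended on the length used.

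Pdgfra and Pdgfrb together made up 53.8% ± 2.43 of the summed CPM per kb of the receptor tyrosine kinase genes in CTR and 56.5% ± 0.858 in cKO (SD, n = 4 each), with 51.4% to 57.3% over the libraries. Most of it was Pdgfrb, at 46.8% ± 2.52 and 49.0% ± 0.930, whereas Pdgfra gave 7.03% ± 0.428 and 7.52% ± 0.724. Per kb of the longest transcript, the joint share was 45.1% ± 2.49 and 48.0% ± 0.702. These shares describe RNA, and fewer cells of a type and less RNA per cell cannot be told apart in bulk samples.

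The closest relatives of the PDGF receptors, which share with them the class III kinase structure, are Kit, Csf1r and Flt3, receptors of hematopoietic cells. Kit, the receptor of stem cell factor, stood 15th with 1224 to 6073 counts, and which cells gave them was not tested. It was at 14.6 ± 4.33 CPM per kb in CTR and 5.21 ± 1.82 in cKO (SD, n = 4 each). Its log2 difference of -1.48 had an unadjusted p of 2.58e-04 and an adjusted p of 0.894 with edgeR. Csf1r, the receptor of macrophage colony-stimulating factor, had 179 to 370 counts (1.45 CPM per kb), and Flt3, also named Flk2, had 11 to 81 counts (0.174 CPM per kb). Of the 29 kinase genes with a count in every library, which were the ones tested, 0 passed the adjusted threshold of 0.05 between genotypes (0% of all genes tested did). An unadjusted p under 0.05 was found for 3 of the 29, Kit, Ret and Ephb3, against 4.43% of all genes.

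**Figure D2:**
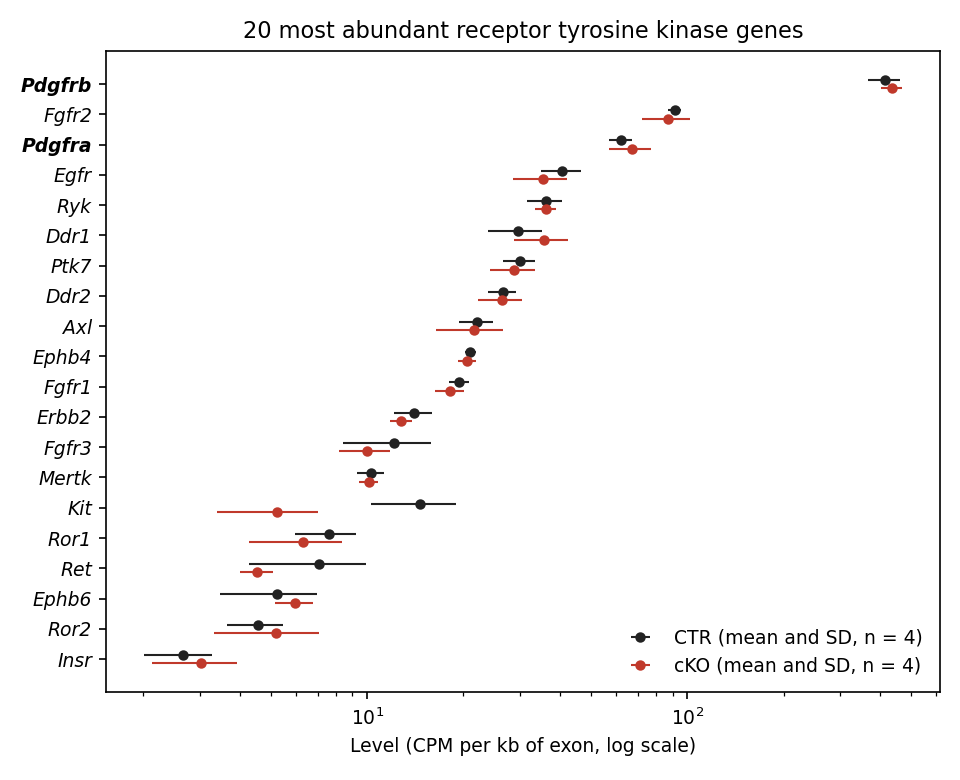
The 20 most abundant receptor tyrosine kinase genes in CPM per kb of exon on a log axis, with CTR in black and cKO in red (points are means, lines the SD, n = 4 each). Pdgfrb, at 415 and 436 CPM per kb, stands apart from Fgfr2 and Pdgfra, which follow at 91.5 and 87.4 and at 62.1 and 67.0 CPM per kb.

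The genotypes were compared with edgeR's quasi-likelihood test over the 14598 genes that had a count above 0 in every library, with Benjamini-Hochberg adjustment. Of the members, 5 of 7 entered this test, since Pdgfb and Pdgfc had libraries at 0. None of the 5 was called, against 0 of all 14598 genes (0%), and none had an unadjusted p under 0.05, against 646 genes (4.43%). The median log2 fold change of all genes was -0.0013 and their median absolute log2 fold change 0.14. The 2 kinase receptors and Pdgfa were within that size, at 0.11 for Pdgfra, 0.072 for Pdgfrb and 0.12 for Pdgfa (log2, cKO minus CTR).

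For Pdgfra, cKO was 1.08 times CTR with a 95% interval of 0.895 to 1.30 (edgeR, unadjusted p = 0.389, adjusted p = 0.999). This log2 difference rested on cKO2 and was -0.0055 without that library. Pdgfrb was 1.05 times CTR (0.885 to 1.25), with an unadjusted p of 0.535 and an adjusted p of 0.999 in edgeR. Pdgfa was 1.08 times CTR (0.909 to 1.29), with edgeR p-values of 0.330 and 0.999 before and after adjustment. Pdgfd was 0.969 times CTR (0.780 to 1.20), with edgeR p-values of 0.752 and 0.999, and its log2 difference of -0.046 became 0.0051 without CTR1 and 0.049 without CTR3. For these 4 genes the intervals did not reach a change of 1.5-fold in either direction.

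Pdgfrl had the widest interval, since 18 to 82 counts stood behind each value. Its cKO level was 0.663 times CTR (95% interval 0.367 to 1.20), with edgeR p-values of 0.152 and 0.999, which leaves room for a change in either direction at this depth. Its log2 difference of -0.59 was -0.37 without cKO2, which held 18 counts. Pdgfc entered only a fit without the filter on low counts, where its log2 difference was 1.38 with a standard error of 1.71 and an adjusted p of 0.972 in edgeR. Exact permutation tests on log2 CPM, two-sided over all assignments of 8 libraries to 2 groups of 4, gave p = 0.514 for Pdgfra, 0.400 for Pdgfrb, 0.143 for Pdgfrl, 0.286 for Pdgfa, 0.886 for Pdgfd and 0.400 for Pdgfc. The smallest p that this design allows is 0.0286. CTR and cKO overlapped for each of the 5 tested members, whereas 383 of all genes (2.62%) had groups that did not overlap.

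Each sample title carries a number whose meaning the labels do not give. CTR2, CTR4, cKO2 and cKO4 hold numbers from 26 to 32 and CTR1, CTR3, cKO1 and cKO3 numbers from 67 to 86, so that both ranges contain 2 libraries of each genotype. Within the 26 to 32 libraries the log2 difference between genotypes was 0.16 for Pdgfra, -0.058 for Pdgfrb, -1.0 for Pdgfrl, 0.076 for Pdgfa and 0.11 for Pdgfd. Within the 67 to 86 libraries it was 0.038, 0.21, -0.21, 0.16 and -0.17 in the same order. The sign was the same in both ranges for Pdgfra, Pdgfrl and Pdgfa and differed for Pdgfrb and Pdgfd. The interaction of genotype and number range had edgeR p-values of 0.202 to 0.769 before adjustment for the 5 members and called 0 of all genes (0%), with 3.44% at an unadjusted p under 0.05.

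Pdgfd overlapped between genotypes and not between title number ranges, a difference that was not called and that many other genes showed. In the 26 to 32 range it measured 45.8 and 45.3 CPM in CTR2 and CTR4 and 49.9 and 48.2 CPM in cKO2 and cKO4. In the 67 to 86 range it measured 59.3 and 64.5 CPM in CTR1 and CTR3 and 51.4 and 58.6 CPM in cKO1 and cKO3. The ranges did not overlap, at 47.3 ± 2.17 and 58.5 ± 5.40 CPM (SD, n = 4 each; exact permutation test, two-sided, p = 0.0286, no smaller value being possible here), as was the case for 1003 of all genes (6.87%). The log2 difference was 0.30 with a standard error of 0.10 (95% interval 0.071 to 0.54; edgeR, unadjusted p = 0.0163, adjusted p = 0.318). It did not pass the adjusted threshold, which 2 of all genes did (0.0137%), while 1694 (11.6%) had an unadjusted p under 0.05. Without CTR3 the unadjusted p was 0.0509.

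Some single marker genes also had values apart in this split of the libraries, and their part in the level of Pdgfd was not tested. Of the 69 markers in 7 lists, 4 had title number ranges that did not overlap. Over all 14598 genes tested, 1003 (6.87%) had such ranges, so the 4 are not read as a result about the markers. Ibsp, a bone matrix gene, was at 10748 to 13798 CPM in the 26 to 32 libraries and 7756 to 10368 CPM in the 67 to 86 libraries, and it made up 94.3% to 97.3% of the sum of the osteoblast or chondrocyte list. The other 8 genes of that list summed to 381 to 559.9 CPM and 369 to 506 CPM, which overlapped. Cxcl12 was lower in the 26 to 32 libraries, at 39694 to 44226 CPM against 44964 to 50718 CPM, while the other 7 MSPC markers summed to 12732 to 14598 and 12544 to 14763 CPM. Myh11, with 287 to 706 counts in the 26 to 32 libraries and 0 to 117 in the others, was the single gene of the 9 pericyte or smooth muscle markers whose ranges were apart, and Notch3, 75.8% to 87.2% of that list's sum, overlapped at 337 to 378 and 318 to 377 CPM. Itga2b, of the megakaryocyte or platelet list, was at 1.32 to 3.43 CPM against 0.518 to 1.11 CPM.

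For the other members the difference between title number ranges had edgeR p-values before adjustment of 0.0942 for Pdgfra (log2 difference -0.19), 0.210 for Pdgfrb (-0.13), 0.669 for Pdgfrl (0.17) and 0.592 for Pdgfa (-0.063). The direction for Pdgfrl turned to -0.09 without cKO2. By mean, both kinase receptors were lower and Pdgfd higher in the 67 to 86 libraries, with ranges that overlapped for the receptors. Without cKO4, the unadjusted edgeR p was 0.0444 for Pdgfra and 0.0414 for Pdgfrb, with adjusted p-values of 0.390 and 0.387. Leaving out other libraries moved the differences the other way. Pdgfra had a log2 difference of -0.10 without cKO2 (edgeR, unadjusted p = 0.292). Pdgfrb had -0.075 without CTR4 (edgeR, unadjusted p = 0.481).

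**Figure D3:**
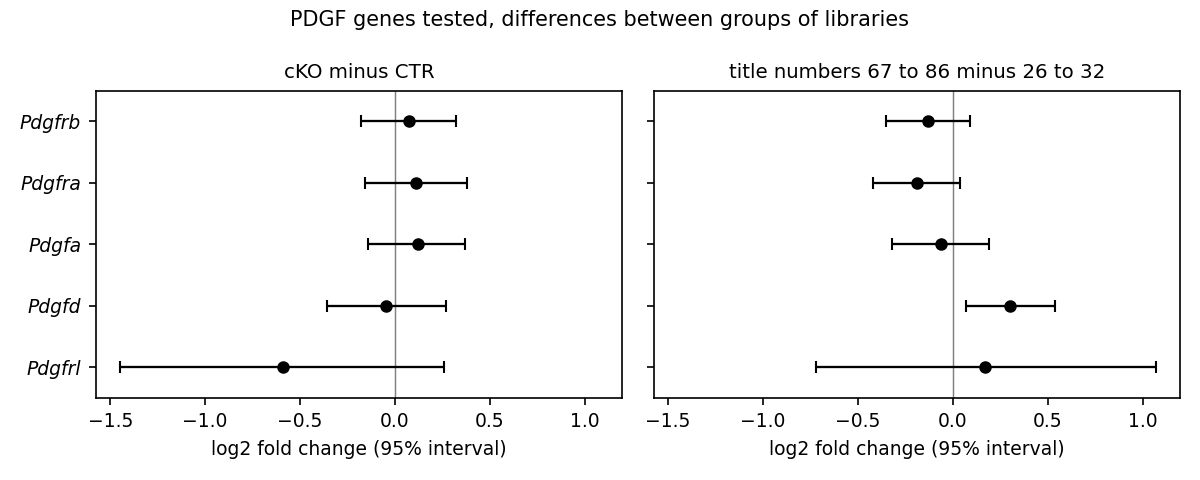
Log2 fold change with its 95% interval (edgeR, 4 against 4 libraries) for the 5 PDGF genes tested, on the left for cKO minus CTR and on the right for title numbers 67 to 86 minus 26 to 32. On the left the 5 intervals include 0, and on the right the interval of Pdgfd, 0.071 to 0.54, lies above it.

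Across the 8 libraries, Pdgfra and Pdgfrb had Pearson's r = 0.625 on log2 CPM (exact permutation test, p = 0.0760, adjusted over 6 pairs of members p = 0.302) and Spearman's rho = 0.524 (exact permutation test, p = 0.197, adjusted p = 0.393). Without the 2 libraries farthest from the median of Pdgfra, r was 0.260. Leaving out extreme values narrows the range and by itself tends to lower r, so no conclusion is drawn from this value. None of the other 5 pairs among Pdgfra, Pdgfrb, Pdgfa and Pdgfd passed the adjusted threshold by the exact permutation test either, and the title number ranges, with 4 libraries each, were too small for a correlation of their own. The genes whose log2 CPM followed each member most closely, of 9414 with a mean of at least 10 CPM, were Simc1, Hectd2 and Ythdf3 for Pdgfra (r = 0.983, 0.962 and 0.924) and ENSMUSG00000087594 and Sat1 for Pdgfrb (0.946 and 0.940). For Pdgfa they were Elk3, Ctdp1 and Snapin (0.944, 0.931 and 0.931), and for Pdgfd Sgta, Mrpl41 and Prkag1 (0.979, 0.978 and 0.960). These are the highest of many values over 8 libraries that share their totals, and they describe likeness only.

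Genes that act around the receptors were grouped by role into lists of co-receptors and binding proteins, proteases that process the ligands, adaptors and signaling enzymes, attenuators, and genes induced by PDGF in fibroblasts. Of these 90 genes, 77 were tested between genotypes and 0 were called. At an unadjusted p under 0.05, 5 were lower in cKO and 0 higher, where 2.08% of all genes were lower and 2.35% higher. By sign alone, 19 were higher and 58 lower, with a median log2 fold change of -0.079 against -0.0013 for all genes tested, of which 49.8% were above 0.

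Of the co-receptors and binding proteins, 5 of 6 were tested and none had an unadjusted p under 0.05. Sparc, a matrix protein that binds PDGF chains, measured 5339 ± 422 CPM (CTR) and 5528 ± 1159 CPM (cKO). Nrp1, a neuropilin that binds several growth factors, had 813 ± 81.2 and 825 ± 61.1 CPM. Lrp1, an endocytic receptor that associates with PDGFRβ, had 1281 ± 77.2 and 1269.9 ± 139 CPM (SD, n = 4 each). Their log2 differences were 0.05, 0.021 and -0.012, and the sign turned without cKO1 for Sparc, without CTR2 or cKO2 for Nrp1 and without CTR2 or cKO4 for Lrp1. The proteoglycan gene Cspg4, which encodes the pericyte antigen NG2, had 0 to 39 counts and was not tested.

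Of the ligand-processing proteases, 4 of 7 were tested, with log2 differences from -0.35 for Pcsk6 to 0.085 for Pcsk5. Furin, the convertase that trims the A and B chains within the cell, measured 275 ± 40.9 CPM (CTR) and 272 ± 20.5 CPM (cKO). Pcsk5 and Pcsk7, convertases of the same family, had 146 and 155 CPM and 35.3 and 34.5 CPM. The proteases known to free the C and D chains outside the cell were scarce. Plau, the urokinase gene, had 0 counts in all libraries, St14, which encodes matriptase, had 0 to 21, and Plat, which encodes tissue plasminogen activator, had 0 to 159.

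The adaptors and signaling enzymes ranged from -0.43 for Nras to 0.53 for Vav3, with a median of -0.059 over 37 tested of 39. Both ends were uncertain, with standard errors of 0.44 and 0.75, and Vav3 had 6 to 151 counts. The most abundant per kb were Akt1, a kinase below phosphatidylinositol 3-kinase (258 and 250.0 CPM in CTR and cKO), the adaptor Shc1 (287 and 300.1 CPM) and the transcription factor Stat5b (248 and 259 CPM). Ptpn11, whose product SHP2 is a phosphatase that promotes Ras signaling from the receptors, had 71.3, 56.0, 68.9 and 57.0 CPM in CTR1 to CTR4 and 57.2, 46.5, 54.0 and 48.4 CPM in cKO1 to cKO4. The genotypes overlapped through cKO1, which lay above CTR2 and CTR4. The log2 difference was -0.30 with a standard error of 0.12 (edgeR, unadjusted p = 0.0342, adjusted p = 0.999). Within the title number ranges it was -0.25 and -0.34.

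The 14 attenuators, phosphatases, ubiquitin ligases and Sprouty proteins that limit receptor signaling, were all tested, and 11 of the 14 were lower by sign, with a median of -0.12. None had an unadjusted p under 0.05. Spry1, a Sprouty gene, was the most abundant, at 716, 866, 985 and 837 CPM in CTR1 to CTR4 and 711, 811, 692 and 716 CPM in cKO1 to cKO4. Its log2 difference was -0.22 (edgeR, unadjusted p = 0.0820, adjusted p = 0.999). Ptpn1, a phosphatase of the receptors, had 183 and 146 CPM (CTR and cKO).

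Of the 24 PDGF-induced genes, 17 were tested, with a median of -0.27 and a range from -1.0 for Cxcl1 to 0.44 for Ccl7. These ends had standard errors of 0.46 and 0.59, and Cxcl1 had 24 to 151 counts. All 4 with an unadjusted p under 0.05 were lower in cKO. Fos, a subunit of the AP-1 transcription factor, had 385, 242, 284 and 242 CPM in CTR1 to CTR4 and 128, 88.5, 211 and 186 CPM in cKO1 to cKO4. The CTR libraries lay above the cKO libraries without overlap (exact permutation test, two-sided, p = 0.0286, no smaller value being possible here). The log2 difference was -0.91 with a standard error of 0.26 (edgeR, unadjusted p = 0.00567, adjusted p = 0.999), and it was -0.91 and -1.01 within the title number ranges. With the likelihood ratio test of DESeq2 and the title number range as a term, the adjusted p of Fos was 0.0486.

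Zfp36, whose product degrades short-lived mRNAs, measured 206 ± 18.2 CPM for CTR and 159.8 ± 19.1 CPM for cKO (SD, n = 4 each; edgeR, unadjusted p = 0.00800, adjusted p = 0.999). Jun, the partner of Fos, had 168 ± 19.7 and 118 ± 40.5 CPM, and the immediate early gene Ier2 51.1 ± 9.79 and 38.2 ± 4.44 CPM, with unadjusted edgeR p-values of 0.0319 and 0.0225. The most abundant of the list per kb, the matricellular genes Ccn2 and Ccn1, did not reach that p. They had 656 ± 218 and 593 ± 138 CPM and 355 ± 186 and 300.3 ± 96.1 CPM, and the sign of each difference turned without CTR2. Of the 7 genes not tested, Atf3, a transcription factor gene of the stress response that was named after its values were seen, had 27, 87, 63 and 43 counts in CTR1 to CTR4 and 0, 0, 17 and 0 counts in cKO1 to cKO4. Egr2, a further transcription factor gene named in the same way, went the other way by count, with 0, 19, 0 and 49 counts in CTR1 to CTR4 and 41, 103, 33 and 108 counts in cKO1 to cKO4. These genes answer to many stimuli, including the handling of tissue, and the list is named for 1 of them. Hematopoietic marker sums overlapped between the genotypes, as given above, and their part in these values was not tested. The largest part of those sums by mean was the hemoglobin gene Hbb-bs, at 26.0% to 43.8% over the libraries.

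**Figure D4:**
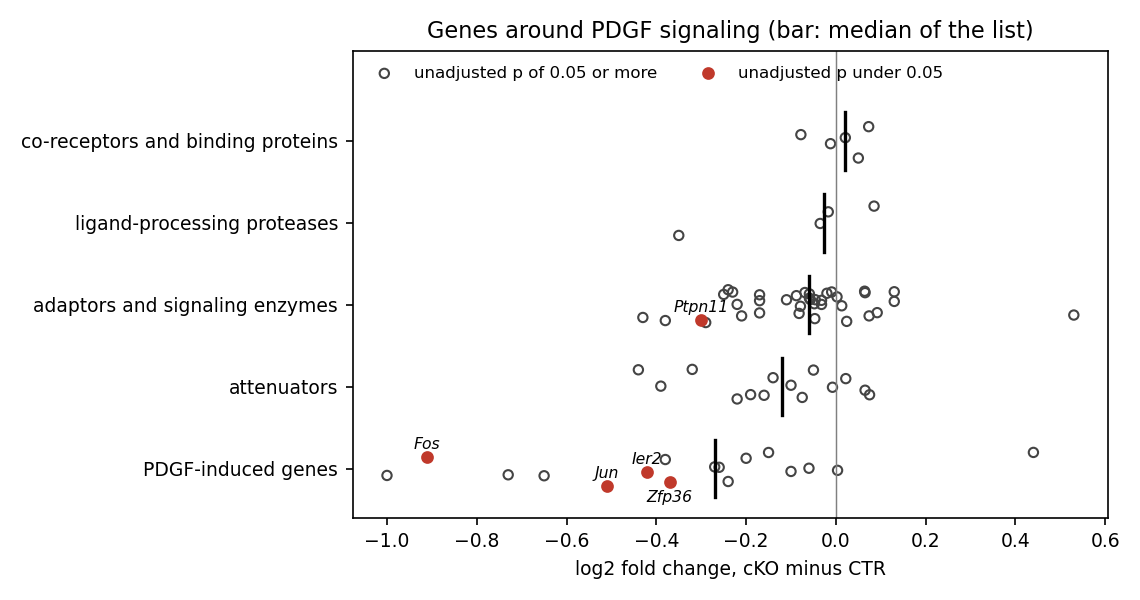
Log2 fold change (cKO minus CTR) of the 77 tested genes that act around the PDGF receptors, by list, with filled red points for an unadjusted p under 0.05 (edgeR) and a bar at the median of each list. The 5 filled points lie below 0, and the medians run from 0.021 for the co-receptors and binding proteins to -0.27 for the PDGF-induced genes.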

How the data were processed

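The 8 MSPC libraries, sequenced as paired reads, were grouped by the genotype in the labels. The authors' methods name quality trimming, HISAT2 alignment (GRCm38) and HTSeq-count for the counts per gene, and the deposited counts carry no normalization. The study tested expression with a likelihood ratio model that corrected for a batch, and it reported genes that differed between genotypes at a q value under 0.05. The main fit here held no batch term and called none, so the share of 0% belongs to this fit. The labels name no batch, and whether the title numbers stand for it is not known. The submitters' processing notes also name HISAT2 and HTSeq; versions and the strand setting were not given in the sources used here. Of 52636 gene rows, 52403 were matched to a symbol; positions and exon lengths are those of GENCODE M21 on GRCm38. Among counts of 3 to 12, 62.7% were odd, and the cause was not tested.

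Counts were scaled by TMM and tested over all 14598 genes whose count exceeded 0 in all libraries with edgeR 4.0.16 in R 4.3.3 (glmQLFit and glmQLFTest, no covariates, Benjamini-Hochberg adjustment, threshold 0.05). Log2 CPM for single-gene permutation tests and correlations used a prior count of 2. Standard errors are the absolute log2 coefficient of the fit, before shrinkage by a prior count, divided by the square root of F. Intervals are centered on the reported log2 fold change. Alternatives were other scalings and filters, DESeq2 1.42.0, limma-voom (limma 3.58.1), a title number term, a replicate block, and each library left out. On data simulated for 4 against 4 libraries, edgeR recovered 43.5% of genes with a log2 change of 1 and 82% of those with 2. It made 5 and 8 false calls among 14598 genes. DESeq2 recovered 62.5% and 85.5% of the same genes, with 43 and 50 false calls. Named genes were the 7 members, the 3 most abundant per kb of each pathway list and its genes with an unadjusted p under 0.05, the 8 most abundant receptor tyrosine kinases and those of class III, markers, the 3 genes most like each member, and Cxcr4; the lowest and highest of a list, Cspg4, Plat, Plau, St14, Atf3, Egr2, Ret and Ephb3 were named after their values were seen. Genes that the rule also names and that are withheld are not reported here. Members and lists were chosen with earlier results of these data known.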

Additional observations from a re-analysis of the deposited data

Results flagged for a closer look

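Of 12 groups of 4 libraries examined, 1 held a library far from the others. For Pdgfa in CTR, the gap of CTR1 (31.0 CPM) to its nearest neighbor took 0.839 of the range of the group, above Dixon's 95% critical value. Chance flags about 1 in 20 groups, or 0.6 of these 12. The log2 difference of Pdgfa between genotypes was 0.066 without CTR1.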

How the results depend on the processing

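With library sizes scaled in other ways, other minimum counts, DESeq2, limma-voom, the title number range as a term and each library left out, the number of PDGF members called between genotypes stayed at 0, and none had an unadjusted p under 0.05 in any of these fits. The number of called genes in the pathway lists was 0 except with the likelihood ratio test of DESeq2 with the title number range as a term, where it was 1 (Fos); over all genes that test called 47, the Wald test of DESeq2 23, and edgeR with other filters 1, against 0. Between title number ranges, the Wald test of DESeq2 called 380 genes and edgeR without a filter 4, against 2, and leaving out a library gave 0 to 4. Per kb of the longest transcript, mean levels became 94.7 for Pdgfra, 0.628 for Pdgfrl and 17.6 for Pdgfa, in place of 64.6, 0.416 and 11.6 per kb of all exons. Replicate numbers are shared between genotypes, and the deviations of same-numbered libraries correlated by 0.131, 0.176, 0.0844 and 0.0572, so that the numbers were not taken as pairs; with a replicate block, edgeR called 0 members, 0 pathway genes and 0 of all genes, with 812 in place of 646 genes at an unadjusted p under 0.05. With each library left out in turn, counts of calls among members and pathway genes stayed at 0, and log2 differences between genotypes ran from -0.0055 to 0.16 for Pdgfra, 0.017 to 0.14 for Pdgfrb, -0.75 to -0.37 for Pdgfrl, 0.066 to 0.15 for Pdgfa and -0.12 to 0.049 for Pdgfd. The same ranges that included both signs were -0.078 to 0.051 for Lrp1, -0.041 to 0.07 for Nrp1, -0.08 to 0.17 for Sparc, -0.09 to 0.074 for Furin (above 0 without CTR2 or cKO4), -0.22 to 0.10 for Pcsk7 (without CTR2, cKO1 or cKO2), -0.12 to 0.0038 for Akt1 (without CTR3 or cKO2), -0.44 to 0.16 for Ccn1, -0.33 to 0.056 for Ccn2 and, between title number ranges, -0.09 to 0.47 for Pdgfrl. Depth limits Pdgfrl, Pdgfc and Pdgfb, whose counts did not exceed 82, 53 and 0 in any library. With 4 mice per group, small changes in the other members were not detectable, as the printed intervals show.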
